A study of Arabidopsis thaliana with 6 samples.

Results

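JAL23 (AT2G39330), JAL33 (AT3G16450) and JAL34 (AT3G16460) are 3 protein-coding Arabidopsis thaliana genes for jacalin-related lectins. They were taken as the probe sets that list a single gene with one of these symbols, which gave 3 probe sets, 1 per gene, of 13286 genes named on the array and 22746 probe sets tested. RNA of whole Col-0 seedlings was hybridised to Affymetrix ATH1 arrays. A yaf9a yaf9b double mutant (3 arrays) was compared with wild type (WT, 3 arrays), each array coming from an independent biological replicate. YAF9A and YAF9B are chromatin proteins shared by NuA4, a histone acetyltransferase, and SWR1, a remodeller that exchanges H2A for its variant H2A.Z. Plants of both genotypes were untreated and 20 days old, had grown on agar at 22 °C in short days (8 h light, 16 h dark) and were harvested at lights-off, ZT8. The labels name neither the mutant alleles nor the number of plants in a sample.

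Jacalin-related lectins are plant proteins that bind sugars through one or more jacalin domains. In Brassicaceae several of them associate with beta-glucosidases that hydrolyse defence compounds. The best known of these is PYK10, which is stored in ER bodies, spindle-shaped compartments of the endoplasmic reticulum found in seedlings and roots. When cells break, PYK10 meets lectins from the cytosol and forms large complexes, and members of the lectin family act antagonistically on the size of those complexes. JAL23, JAL33 and JAL34 are all lectins of this kind. The yaf9a yaf9b to WT comparison asked whether their transcripts differed between the genotypes.

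None of the 3 genes passed the test, a limma adjusted p under 0.05 over all probe sets. The probe sets of JAL33 and JAL34 were among the brightest on the arrays, and their mean log2 signals in the mutant and WT differed by 0.02 and 0.04, less than the spread between arrays. JAL23 had a dim signal that was 0.53 lower in the mutant on the log2 scale, with every mutant array below every WT array and an adjusted p of 0.0747 (limma). JAL22, the only other gene with a named probe set whose annotation used here calls it a jacalin-related lectin, fell 1.53-fold in the mutant and passed the test. A count of 0 of 3 stands beside 13.1% of all probe sets called in this comparison (6.52% higher and 6.61% lower in the mutant), and at an unadjusted p under 0.05 the count was 1 of 3, JAL23, against 27.8% of all probe sets.

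The arrays were alike in distribution, with medians from 5.99 to 6.06 on the log2 scale. Across probe sets, arrays correlated at 0.989 to 0.996 within the mutant, at 0.993 to 0.995 within WT and at 0.98 to 0.987 between genotypes. YAF9A and YAF9B had 0 named probe sets and were not analysed here, so the targeted transcripts give no check of the labels. The 4 probe sets of leaf markers had mean signals from the 99.3th percentile of all probe sets upward. Of the 3 root markers, the beta-glucosidase gene PYK10 was at the 99.2th percentile, EXPA18 at the 39.4th and EXPA7 at the 15.8th, so the 2 root hair expansin genes were dim. In whole seedlings, fewer cells of a type and less RNA per cell cannot be told apart.

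JAL33 encodes a lectin that binds several sugars and was found with PYK10. Its signal was 11.43, 11.41 and 10.98 in mutant arrays 1, 2 and 3, and 11.30, 11.13 and 11.34 in WT arrays 1, 2 and 3 (log2 signal here and below). The genotypes overlapped: mutant array 3 was the lowest of the 6 arrays and mutant arrays 1 and 2 were the highest. The means were 11.27 ± 0.25 in the mutant and 11.26 ± 0.11 in WT (SD, n = 3 each). The log2 change, mutant minus WT, was 0.02 ± 0.14 (SE; limma adjusted p = 0.959). Its 95% confidence interval ran from -0.30 to 0.33, which as a ratio of mutant to WT is 0.814 to 1.26.

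JAL34, the next gene after JAL33 in the reference table, encodes another lectin of the PYK10 complex. Its signal was 11.31, 11.27 and 10.87 in mutant arrays 1, 2 and 3, and 11.05, 11.13 and 11.14 in WT arrays 1, 2 and 3. Mutant array 3 was again the lowest of all and mutant arrays 1 and 2 the highest, so the genotypes overlapped. The log2 change was 0.04 ± 0.13 (SE; limma adjusted p = 0.87), with a 95% confidence interval from -0.25 to 0.33, or 0.842 to 1.26 as a ratio of mutant to WT. The mean was 11.15 ± 0.24 in the mutant and 11.11 ± 0.05 in WT (SD, n = 3 each). The WT arrays thus lay within 0.09 of each other, and the spread of the mutant arrays came from array 3. JAL34 shares part of its interval with the next gene, JR1 (JAL35), in the TAIR10.1 table, and JR1 was not analysed here. Whether signal from JR1 enters the JAL34 probe set was not tested.

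JAL23 lies on chromosome 2, apart from the JAL33 and JAL34 pair on chromosome 3. Its signal was 3.34, 3.68 and 3.68 in mutant arrays 1, 2 and 3, and 3.77, 4.36 and 4.15 in WT arrays 1, 2 and 3. The 2 genotypes did not overlap, but the gap was narrow, from 3.68 in the highest mutant arrays to 3.77 in WT array 1. The means were 3.57 ± 0.20 in the mutant and 4.09 ± 0.30 in WT (SD, n = 3 each). The log2 change was -0.53 ± 0.16 (SE), a signal 1.44-fold lower in the mutant, with a 95% confidence interval from -0.90 to -0.15. The limma p was 0.0124 unadjusted and 0.0747 adjusted, so the difference did not pass. Without WT array 1 the change was -0.69 with an adjusted p of 0.0316, which passed, and without WT array 2 it was -0.39 with an adjusted p of 0.21.

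JAL23 stood at the 23.1th percentile of mean signal over all probe sets, against the 97.9th for JAL33 and the 97.7th for JAL34. A change in so dim a probe set is read from signals near the lower end of the array, where the values of RMA, the normalization used, are known to be compressed. Of all probe sets, 15.9% were lower in the mutant without overlap. Among the 2278 probe sets between the 20th and 30th percentiles of mean signal, a band chosen after the values were seen, 5.62% were lower without overlap and 4.21% passed the test. These percentiles rank the signals of probe sets and not transcript levels, since each probe set has its own response to its transcript.

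**Figure D1:**
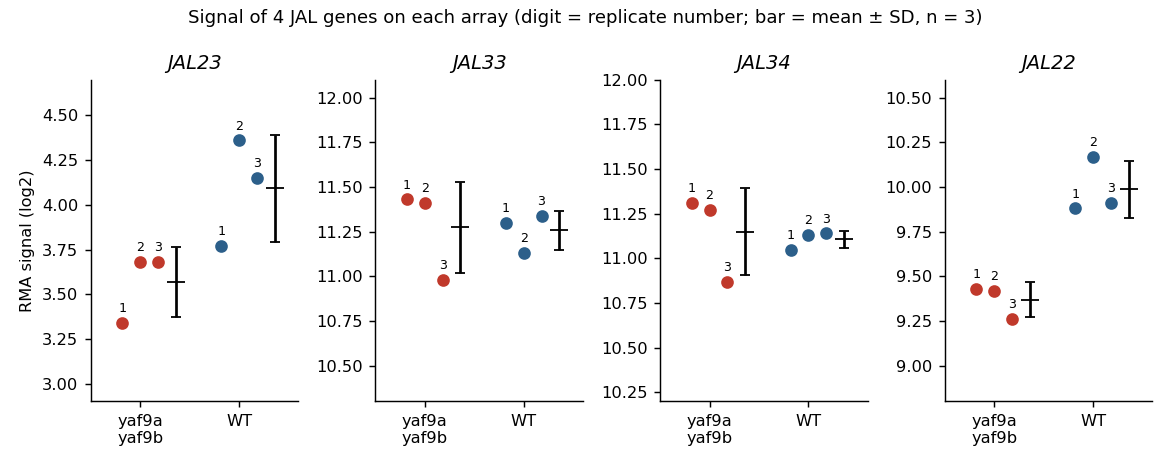
RMA signal on the log2 scale (y axis, each panel spanning 1.8 units) of JAL23, JAL33, JAL34 and JAL22 on each array, yaf9a yaf9b in red and WT in blue, with the mean ± SD of 3 arrays in black. The genotypes separate for JAL23 and JAL22 and overlap for JAL33 and JAL34, whose mutant array 3 lies lowest at 10.98 and 10.87.

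JAL22 (AT2G39310) lies 2 positions before JAL23 in the reference table and encodes a related lectin of the PYK10 complex. Its signal was 9.43, 9.42 and 9.26 in mutant arrays 1, 2 and 3, and 9.88, 10.17 and 9.91 in WT arrays 1, 2 and 3. Every mutant array lay below every WT array, by at least 0.45. The log2 change was -0.62 ± 0.11 (SE; limma adjusted p = 0.0107), with a 95% confidence interval from -0.86 to -0.37. The intervals of JAL22 and JAL23 overlapped over most of their length, and their difference was not tested. The gene between them, AT2G39320, had a log2 change of 0.06 ± 0.10 (SE; limma adjusted p = 0.766), and AT2G39300, before JAL22, had -0.11 ± 0.14 (adjusted p = 0.679). AT2G39280, a little further on the same side, had -0.13 ± 0.10 (adjusted p = 0.47). The probe sets of AT2G39320 and AT2G39300 were dim, at 3.55 to 3.86 and 3.28 to 3.82 across the arrays. JAL23 was at 3.34 to 4.36 and AT2G39280 at 4.78 to 5.17. A fall of AT2G39320 or AT2G39300 could be missed at so dim a signal, so their values do not show that these genes were unchanged. Of the genes near JAL33 and JAL34, IQD26 rose with a log2 change of 0.40 ± 0.09 (SE; limma adjusted p = 0.0218), a call that ended without WT arrays 1 or 2 or mutant arrays 1 or 2 (adjusted p 0.0634 to 0.0937). The remaining lectin genes of that cluster were not analysed here.

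Whether the 3 genes differed from each other in their response to genotype was tested on the per-array difference of log2 values. The change of JAL23 lay below that of JAL33 (difference of changes -0.54 on the log2 scale) and below that of JAL34 (difference of changes -0.57). In an exact permutation test over the arrays, two-sided, each had p = 0.2, adjusted over the 3 pairs to 0.3, where the smallest p that 3 against 3 arrays can give is 0.1. The change of JAL33 differed from that of JAL34 by -0.03 (exact p = 0.9, adjusted 0.9). With 3 arrays per genotype the test cannot pass 0.05, so it leaves the responses of these genes undecided.

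**Figure D2:**
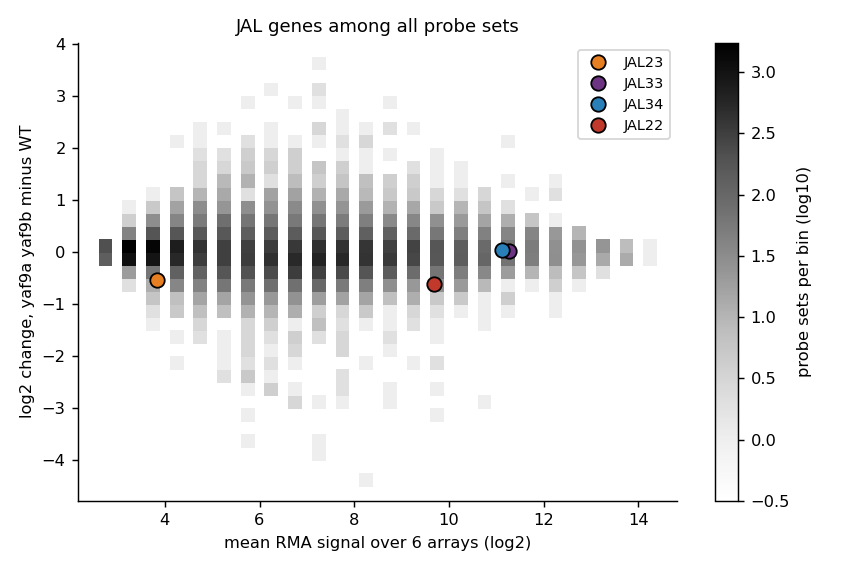
Log2 change, yaf9a yaf9b minus WT (y axis), against the mean RMA signal over the 6 arrays (x axis, log2), with all probe sets as grey bins shaded by their number on a log10 scale and 4 JAL genes as coloured points. JAL33 and JAL34 sit near 0 among the bright probe sets, JAL22 and JAL23 lie at -0.62 and -0.53, and JAL23 is at the dim end.

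JAL33 and JAL34 had similar profiles over the 6 arrays, a comparison made after their values were seen. With each gene's values centred on its own mean, the root mean square difference between their profiles over the 6 arrays was 0.078, and JAL34 ranked 53 among 13435 other named probe sets in likeness to JAL33 (median of all 0.217). In the mutant, both deviated by about the same amount on array 3, at -0.29 for JAL33 and -0.26 for JAL34. PYK10, picked for comparison with NAI2 and EXPA18 after their values were seen, lay at 12.26, 12.36 and 11.82 in mutant arrays 1, 2 and 3, and at 12.17, 12.43 and 12.28 in WT arrays 1, 2 and 3. Like JAL33 and JAL34, it was lowest in mutant array 3. NAI2, which encodes a protein needed to form ER bodies, was at 10.28, 10.23 and 9.76 in the mutant arrays and at 9.84, 9.75 and 9.89 in the WT arrays. In likeness to JAL33, PYK10 ranked 2514 and NAI2 823 among the 13435, and in likeness to JAL34 they ranked 611 and 722. EXPA18, an expansin gene of root hairs, was at 5.34, 5.11 and 4.71 in the mutant arrays and at 5.12, 4.66 and 5.16 in the WT arrays, so mutant array 3 was again the lowest mutant. In the same lists, mutant array 3 was also the lowest of all 6 arrays for BGLU24 and BGLU25, at 2.89 and 7.54. For NAI1 and ATA27 it was the lowest mutant array, at 6.06 and 3.22. BGLU24 and ATA27 were dim, at the 4.9th and 8.74th percentiles of mean signal. For BGLU19 and EXPA7, array 3 was not lower than both other mutant arrays. BGLU19 was at 4.29, 4.50 and 4.93 in the mutant arrays, highest in array 3, against 3.99, 4.24 and 4.39 in the WT arrays. EXPA7 was at 3.48, 3.67 and 3.48 in the mutant arrays and at 3.49, 3.39 and 3.77 in the WT arrays.

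Mutant array 3 was the lowest of all 6 arrays, as for JAL33, JAL34, PYK10, BGLU24 and BGLU25, in 13.9% of all probe sets. It was the lowest mutant array in 30.3%. The 3 measured root markers, PYK10, EXPA7 and EXPA18, had a mean signal of 7.03, 7.05 and 6.67 in mutant arrays 1, 2 and 3, and of 6.93, 6.83 and 7.07 in WT arrays 1, 2 and 3. The 4 leaf markers had a mean of 13.12, 13.16 and 13.21 in the mutant arrays and of 13.26, 13.34 and 13.19 in the WT arrays. The part of root content in the JAL33 and JAL34 values was not tested. Without mutant array 3 the log2 change was 0.16 for JAL33 (limma adjusted p = 0.394) and 0.18 for JAL34 (0.282), and neither passed.

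**Figure D3:**
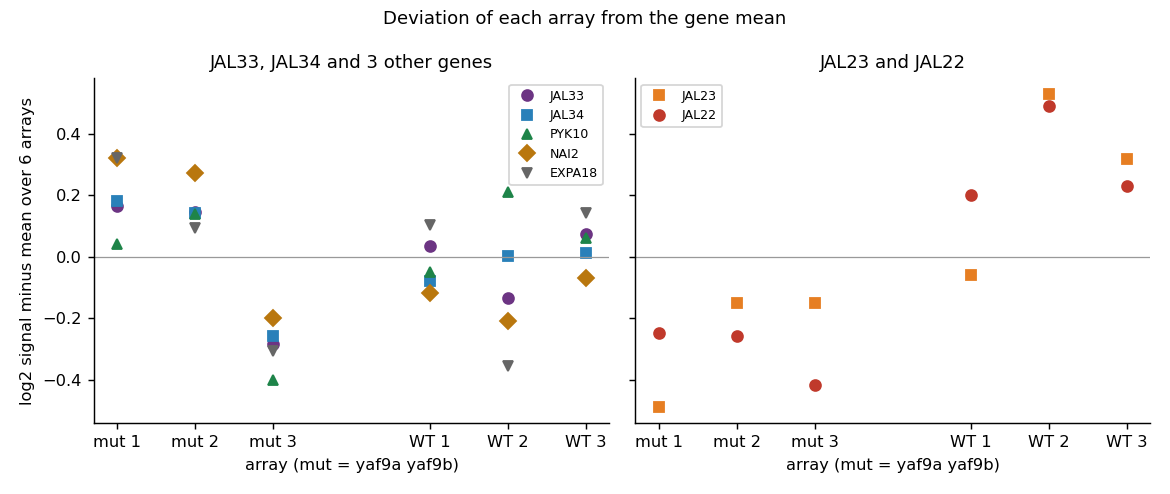
Log2 signal of each array minus the gene's mean over the 6 arrays (y axis), with the arrays on the x axis, mutant (mut) left of WT. In the left panel JAL33, JAL34, PYK10, NAI2 and EXPA18 lie below 0 on mutant array 3. NAI2 and EXPA18 lie lower still on WT array 2, at -0.21 and -0.36, and NAI2 lies below 0 on all 3 WT arrays. In the right panel JAL23 and JAL22 lie below 0 on all 3 mutant arrays.

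JAL23 followed another course over the arrays. Its root mean square difference from JAL33 was 0.417 and from JAL34 0.392, against a median of 0.367 over all named probe sets, whereas JAL22, at 0.191, ranked 302 among 13435. The measure includes the difference between genotypes, so the rank of JAL22 follows in part from its own fall and is no separate evidence. The 3 named genes most like JAL23 by this measure were AT1G77280 (0.034), AT4G10360 (0.0703) and AT1G64370 (0.0989). They were chosen for profiles close to that of JAL23, so changes near its own follow from the choice and bear no weight for JAL23. AT4G10360 had 7.44, 7.66 and 7.78 in mutant arrays 1, 2 and 3, and 7.93, 8.32 and 8.22 in WT arrays 1, 2 and 3. The change was -0.53 ± 0.13 (SE; limma adjusted p = 0.0363). AT1G64370 fell as well, with a log2 change of -0.59 ± 0.12 (SE; limma adjusted p = 0.0206), and AT1G77280 had -0.54 ± 0.17 (adjusted p = 0.0843). AT4G10360 and AT1G64370 no longer passed when WT 2, WT 3, mutant 1 or mutant 2 was left out in turn (adjusted p 0.0538 to 0.119). Like JAL23, AT1G77280 passed without WT array 1 (adjusted p = 0.0249). The table used gives these 3 genes no name beyond the locus.

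The ER body and PYK10 complex genes were measured as the partners of these lectins. The 17 symbols listed gave 14 genes in the reference table, of which 7 had a named probe set. By limma 0 of 7 passed in either direction, with 0 also at an unadjusted p under 0.05, against 13.1% and 27.8% of all probe sets. The median log2 change was 0.02, against 0.01 over all probe sets. PYK10 had a log2 change of -0.15 ± 0.15 (SE; adjusted p = 0.593), and NAI1, the bHLH transcription factor needed for ER body formation, had 0.00 ± 0.13. NAI2 had 0.26 ± 0.14 (adjusted p = 0.281). Without mutant array 3, an alternative chosen after the values were seen, NAI2 was higher by 0.43 with an adjusted p of 0.0335, and PYK10 was at 0.02. The beta-glucosidase genes BGLU19, BGLU24, BGLU25 and ATA27 (BGLU20) had log2 changes of 0.37, 0.09, 0.02 and 0.01.

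Jasmonate genes were set beside the lectins because jacalin-related lectins such as JR1 are known to be induced by this wound hormone. The 50 jasmonate symbols listed gave 45 genes in the reference table, of which 7 had a named probe set. Of these, 2 fell and 0 rose (median log2 change -0.31), against 6.61% lower and 6.52% higher over all probe sets. The list was chosen with earlier results of these data known, so the count bears no weight as a test. THI2.1, an antimicrobial thionin, had 3.66, 3.48 and 3.89 in mutant arrays 1, 2 and 3, and 6.65, 7.64 and 7.98 in WT arrays 1, 2 and 3. JRG21, for a jasmonate-inactivating oxidase, had 5.98, 5.21 and 4.59 in the mutant arrays and 7.87, 9.24 and 9.87 in the WT arrays. The changes of THI2.1 (-3.75 ± 0.30) and JRG21 (-3.73 ± 0.51; SE, limma adjusted p = 0.00079 and 0.00454) stand beside -0.62 for JAL22, the largest change among the 4 JAL genes measured. Both calls held in every alternative run. WT array 1 was the lowest WT array for JAL23, JAL22, THI2.1 and JRG21, as it was for 25.3% of all probe sets. The transcription factor genes MYC3 and MYC4, which act in jasmonate signalling, had log2 changes of -0.31 ± 0.14 and -0.10 ± 0.13 (adjusted p = 0.189 and 0.686). The synthesis genes OPCL1 and JMT had 0.08 ± 0.15 and -0.03 ± 0.11 (adjusted p = 0.797 and 0.888). JMT was dim, at the 9.34th percentile of mean signal. PDF1.2, a defensin, had -1.68 ± 1.32 (adjusted p = 0.473), at 6.41, 8.35 and 6.64 in the mutant arrays and 5.31, 10.21 and 10.92 in the WT arrays, so that WT array 1 lay below every mutant array. None of these 5 passed. WT array 1 was also the lowest WT array for JAL34, MYC3 and PDF1.2, but not for JAL33, MYC4, OPCL1 or JMT.

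**Figure D4:**
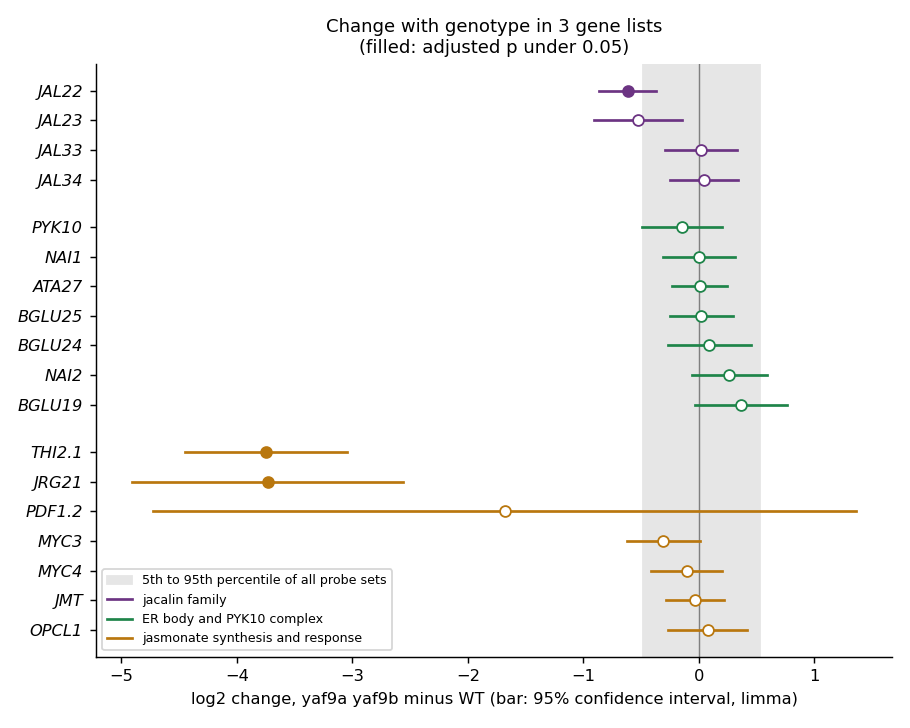
Log2 change, yaf9a yaf9b minus WT, with its 95% confidence interval (x axis) for each measured gene of the jacalin, ER body and jasmonate lists, filled where the limma adjusted p is under 0.05, over a grey band from the 5th to the 95th percentile of all probe sets. JAL33, JAL34 and the ER body genes lie inside the band, which runs from -0.49 to 0.53, and JAL22 and JAL23 just below it.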

How the data were processed

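Per the labels, each sample held about 250 mg of seedlings, and 500 ng of its total RNA was made into biotin-labelled cRNA with a 3' IVT kit. The deposited table holds log2 signals with a column for each array, made with RMA and affy per the submitters' processing notes. Their versions, the genome build and scan dates are not stated, so batch and genotype could not be compared. The number of arrays limits the precision.

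Of 22810 probe sets, 64 controls were left out. Each of the other 22746 was tested two-sided, mutant minus WT, by lmFit and eBayes of limma 3.58.1 (R 4.3.3), with Benjamini-Hochberg adjustment over all of them and a threshold of 0.05. Pairs of genes were compared by exact permutation (SciPy 1.17.1). The fit was tested on data simulated for yaf9a yaf9b minus WT over 22746 probe sets, with changes put into 200 of them. In the simulation 26.8% of changes of 0.5 on the log2 scale, 75% of changes of 1 and 97.4% of changes of 2 were called. Of its 147 calls, 7 were false. The deposited data gave 2985 calls, so the adjusted threshold falls at another p there. The simulated rates are therefore not detection rates for the deposited data.

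Names came from GEO's platform annotation and the TAIR10.1 RefSeq table. A single gene was listed for 13513 probe sets (13436 matched by gene ID), several for 503 and none for 8730. Lists used the brightest probe set of each gene. The jacalin list held 61 symbols and matched 16 genes of the table, of which 4 had a named probe set. Genes that carry only a locus there were not counted as lectins. Lists of glucosinolate breakdown genes and of other lectin families had 0. Of the genes listed for myrosin cells only FMA was measured, and whether its signal came from those cells was not tested. FMA had a log2 change of -0.35 and did not pass (limma adjusted p = 0.24). LHCB4.2 was the 1 leaf marker that passed, at -0.33, and its call ended without any 1 of the 6 arrays (limma adjusted p 0.0521 to 0.158) and with median centring (0.0631). The root markers gave 0 calls.

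The text names the 3 genes, all measured jacalin and ER body genes, up to 4 passing genes of each other list, the 3 genes nearest to a member that ranged over more than 1 on the log2 scale, and neighbours. MYC3, MYC4, OPCL1, JMT and PDF1.2 were named after their values were seen. Members and lists were chosen with earlier results of these data known. Planned promoter motif counts were not run.

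Alternatives were cyclic loess, median centring, a trended robust variance model, array weights, dropping probe sets under the 40th percentile of signal, leaving out suffixes _s_at and _x_at, a 1.5-fold minimum, the replicate number as a block and leaving out each array.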

Additional observations from a re-analysis of the deposited data

How the results depend on the processing

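JAL23 stayed lower in the mutant in every alternative run. Its log2 change was -0.53 with the replicate number as a block, where it passed (limma adjusted p = 0.0477), and -0.69 to -0.39 leaving out 1 array, where it passed without WT array 1. It had no value under the dim filter, which removed it. With the trended robust variance model the adjusted p was 0.0527, and with array weights it was 0.105. JAL33 and JAL34 did not pass in any alternative. JAL33 was at -0.025 after cyclic loess and at -0.062 to 0.163 leaving out 1 array, and JAL34 at -0.037 to 0.183, so the direction of neither is fixed. PYK10, not passing either, was at 0.017 without mutant array 3. JAL22, run after its value was seen, passed in all 13 alternatives, at -0.67 to -0.53 leaving out 1 array. The block gave 2 jacalin genes past the threshold, and leaving out 1 array gave 1 to 2; for the ER body list that range was 0 to 1, and for the jasmonate list 2 to 3. The difference of changes ran from -0.75 to -0.35 for JAL23 minus JAL33, from -0.77 to -0.38 for JAL23 minus JAL34 and from -0.102 to 0.023 for JAL33 minus JAL34. Of all probe sets, 2985 changed (1482 higher, 1503 lower), with 1636 and 1251 after median centring and 1601 and 1361 after cyclic loess. With array weights 4278 changed (1980 higher, 2298 lower). The count was 1233 with the block and 1366 with a 1.5-fold minimum by construction. Leaving out 1 array gave 963 to 2684, lowest without mutant array 2, with 1380 without WT array 2 and 1924 without mutant array 1. After the mean of each genotype was removed, same-numbered arrays correlated at -0.21, 0.01 and -0.32 over probe sets, and 0 of 6 arrays correlated best with its own number, which gives no sign of pairing. The block changed no other call among the JAL genes and ended those of IQD26 (0.0798) and LHCB4.2 (0.121). The cause of these differences was not tested. The dim signal of JAL23 limits what can be read from it.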
